A study of Mus musculus with 8 samples.

Results

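Proteasome genes were examined in brain microglia of mice that lack MFP2, as the probe sets whose single annotated symbol starts with Psma, Psmb, Psmc, Psmd, Psme, Psmf or Psmg, without the interferon-inducible subunits Psmb8, Psmb9 and Psmb10. This rule gave 53 probe sets, and the probe set with the highest mean over the 8 arrays stood for each gene, which left 47 genes of the 19938 tested. Of these symbols 2 name no proteasome component: Psmc3ip, a partner of the recombinases of meiosis, and Psme3ip1, a protein that binds the activator Psme3. The other 45 encode 20S core subunits (16 genes), 19S particle subunits (17), assembly chaperones (7), activators (4) and the regulator Psmf1. The rule picks symbols by name, but it was set with earlier results of these data known.

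The proteasome degrades proteins that carry ubiquitin chains and supplies most of the peptides shown on MHC class I. Its 20S core is a barrel of alpha and beta rings with the proteolytic sites on the beta subunits Psmb5, Psmb6 and Psmb7, which the interferon-inducible Psmb8, Psmb9 and Psmb10 replace in the immunoproteasome. The 19S particle binds and unfolds ubiquitinated substrates with a ring of ATPases, whereas activators of the PA28 and PA200 families open the core without ubiquitin.

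The series compared 4 MFP2 knockout with 4 control arrays. MFP2 is the peroxisomal beta-oxidation enzyme that the gene Hsd17b4 encodes. All 8 samples were labelled Swiss Webster, female and 17 weeks old, with the control genotype given as wild type, and the cells were CD11b-high, CD45-intermediate cells sorted from perfused whole brain, so both groups had passed through dissociation, Percoll and cell sorting. The sources used here do not say how the allele was made, in which cells the gene is absent or whether each array came from 1 animal. P-values therefore reflect only how these 8 samples scatter, which may be technical. Values are log2 expression after RMA, a level of 1 probe set that cannot be set against the level of another, and changes are knockout minus control ± the standard error of the limma fit. A gene rose or fell when its limma p, adjusted by Benjamini-Hochberg over all genes, was under 0.05.

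Hsd17b4 fell by 2.88 ± 0.44 (adjusted p = 0.00158), from 8.47 ± 0.59 to 5.59 ± 1.09 (mean ± SD, n = 4 each). Its value in knockout 2 was 7.20, against 4.76 to 5.21 in the other knockout arrays and 7.82 to 9.09 in the controls. Control 1 went against its female label: Xist read 6.80 there and 10.55 to 10.99 elsewhere, and the Y-linked Eif2s3y read 8.14 there and 2.78 to 2.99 elsewhere. On the first principal component of all genes, which held 48.7% of the variance, control 3 lay at -9.62 and the other controls at -24.7 to -23.2, whereas the knockout arrays lay at 12.4 to 30.2. The main results are therefore also given without controls 1 and 3 and knockout 2. In the microglia list 9 markers were measured, and 5 of them (Tmem119, P2ry12, Cx3cr1, Sall1 and Csf1r) fell. The summed linear level of the list was 29615 to 33110 in the controls and 22684 to 25622 in the knockout. Of the 9 changes 8 were below 0 and 1 above, that of Ptprc at 0.27. Ptprc did not meet the rule for a rise, but its groups did not overlap.

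Of the 47 proteasome genes 2 rose and 0 fell. Psmg4, an assembly chaperone of the core, rose 1.93-fold, and Psme1, the alpha subunit of the PA28 activator, rose 1.26-fold. The call rate over all genes was 5.38% higher and 4.17% lower (9.55% in all), against 4.26% of the proteasome genes in all. Read against that background, the count of 2 is not a result about the proteasome genes as a group. At an unadjusted limma p under 0.05 there were 5 genes (10.6%, against 21.0% of all genes), Psmg4, Psme1, Psmd8, Psmb4 and Psmd9, each with a higher mean in the knockout. The median change was 0.04, beside -0.02 for all genes, and 29 genes (61.7%) had a change above 0 and 18 below, against 44.2% above 0 among all genes. In bulk RNA of sorted cells, a smaller share of a cell type and less RNA per cell cannot be told apart.

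**Figure D1:**
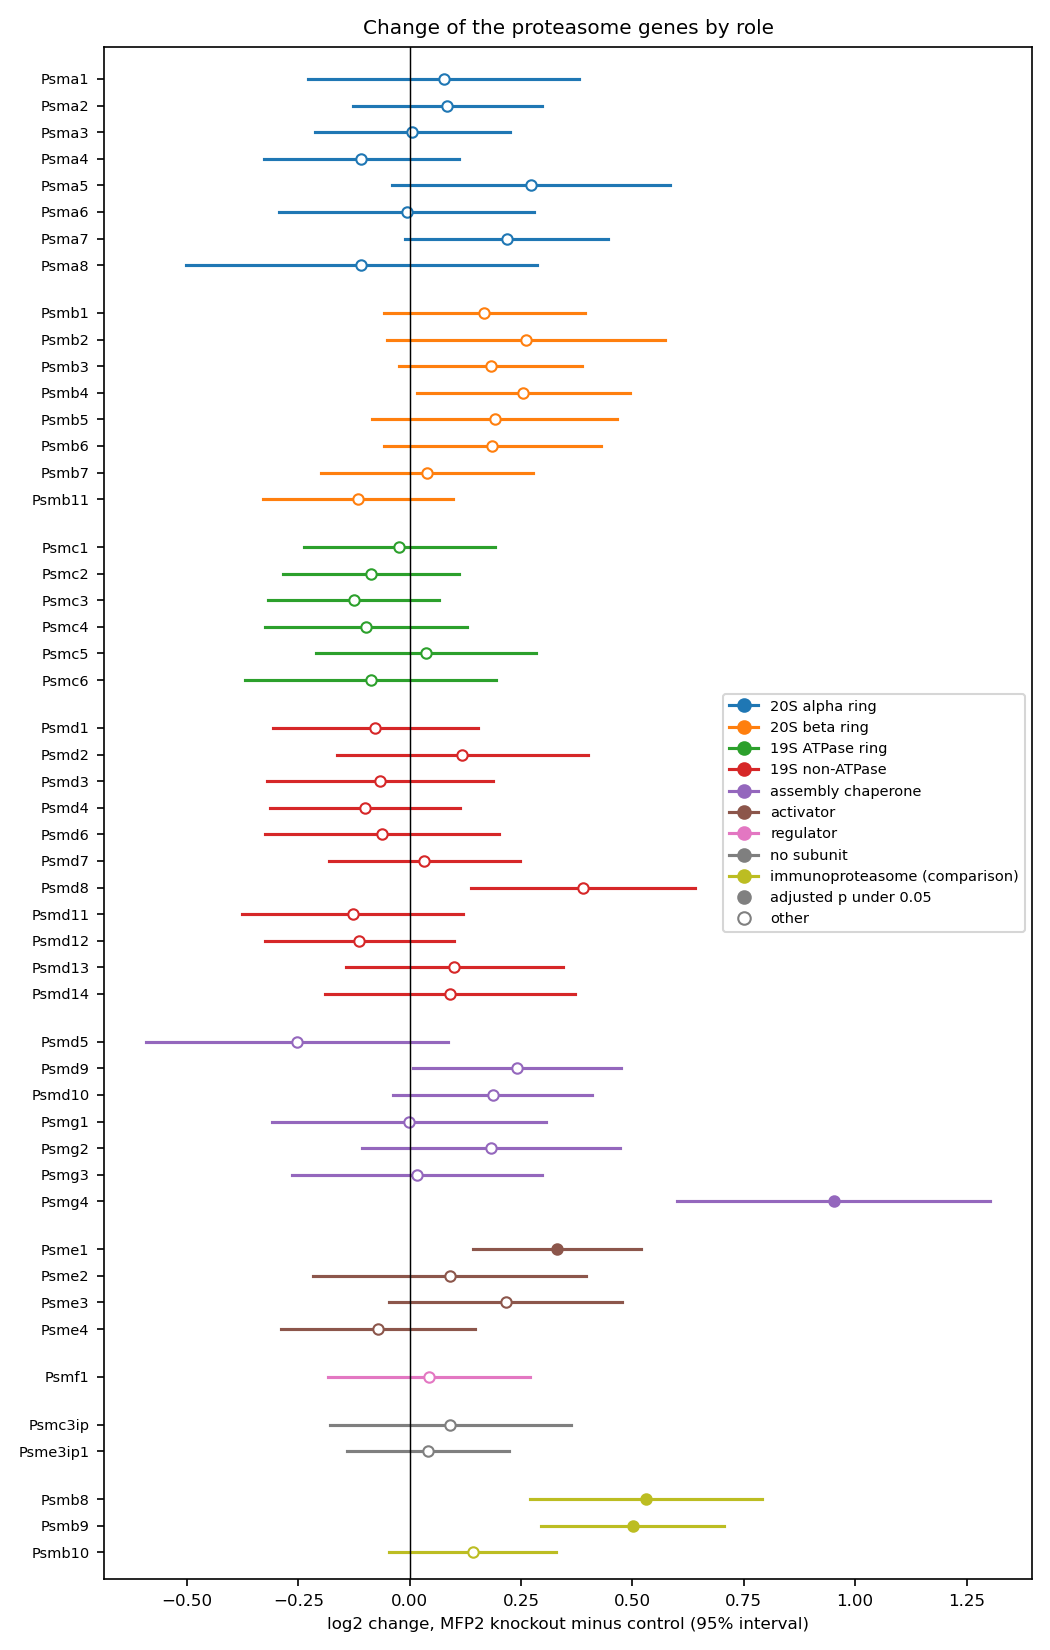
Log2 change, MFP2 knockout minus control, of the 47 proteasome genes and of the 3 immunoproteasome subunits, in blocks by role, with 95% intervals of the limma fit. Filled points passed an adjusted p of 0.05: Psmg4 at 0.95, Psme1 at 0.33, Psmb8 at 0.53 and Psmb9 at 0.50.

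The intervals show how large a change the other genes could hold. For 40 of the 47 genes (85.1%, against 78.2% of all genes) the 95% interval of the change lay within 0.5 on either side of 0, a bound of 1.41-fold. The exceptions were Psma5, Psma8, Psmb2, Psmd5, Psmd8, Psme1 and Psmg4. A p that misses the threshold does not show that a gene was the same in both groups. The groups did not overlap in 4 genes, Psmg4, Psme1, Psmd8 and Psmd9, which is 8.51% of the proteasome genes against 14.0% of all genes.

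Psmg4, the partner of Psmg3 in a chaperone pair that helps to build the alpha ring, had the largest change of the 47 genes. Psmg4 stood at 6.45, 6.52, 6.88 and 6.40 in control arrays 1 to 4 and at 7.12, 7.66, 7.36 and 7.91 in knockout arrays 1 to 4. All knockout arrays were above all controls, and control 3 was the highest control. The change was 0.95 ± 0.16 (adjusted p = 0.00284, 95% interval 0.60 to 1.30). It was 1.00 with an adjusted p of 0.0235 without controls 1 and 3 and knockout 2, and 0.82 to 1.08 when each array was left out in turn, with an adjusted p of 0.0147 or less. The partner Psmg3 did not pass, with a change of 0.02 ± 0.13 (adjusted p = 0.966, 95% interval -0.26 to 0.30).

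Psme1 encodes the alpha subunit of the PA28 ring, which caps the core and is induced by interferon gamma together with its partner Psme2. Psme1 stood at 10.21, 10.19, 10.32 and 10.24 in control arrays 1 to 4 and at 10.49, 10.47, 10.69 and 10.64 in knockout arrays 1 to 4. The spread within each group was narrow and the groups did not overlap. The change was 0.33 ± 0.09 (adjusted p = 0.0314, 95% interval 0.14 to 0.52). The Psme1 call depended on single arrays: the change was 0.29 to 0.37 when each array was left out in turn, but the adjusted p rose above the threshold without control 1 (0.0872), control 2 (0.0738), control 4 (0.0758), knockout 3 (0.108) or knockout 4 (0.0815). Without controls 1 and 3 and knockout 2 the change was 0.39 with an adjusted p of 0.123.

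**Figure D2:**
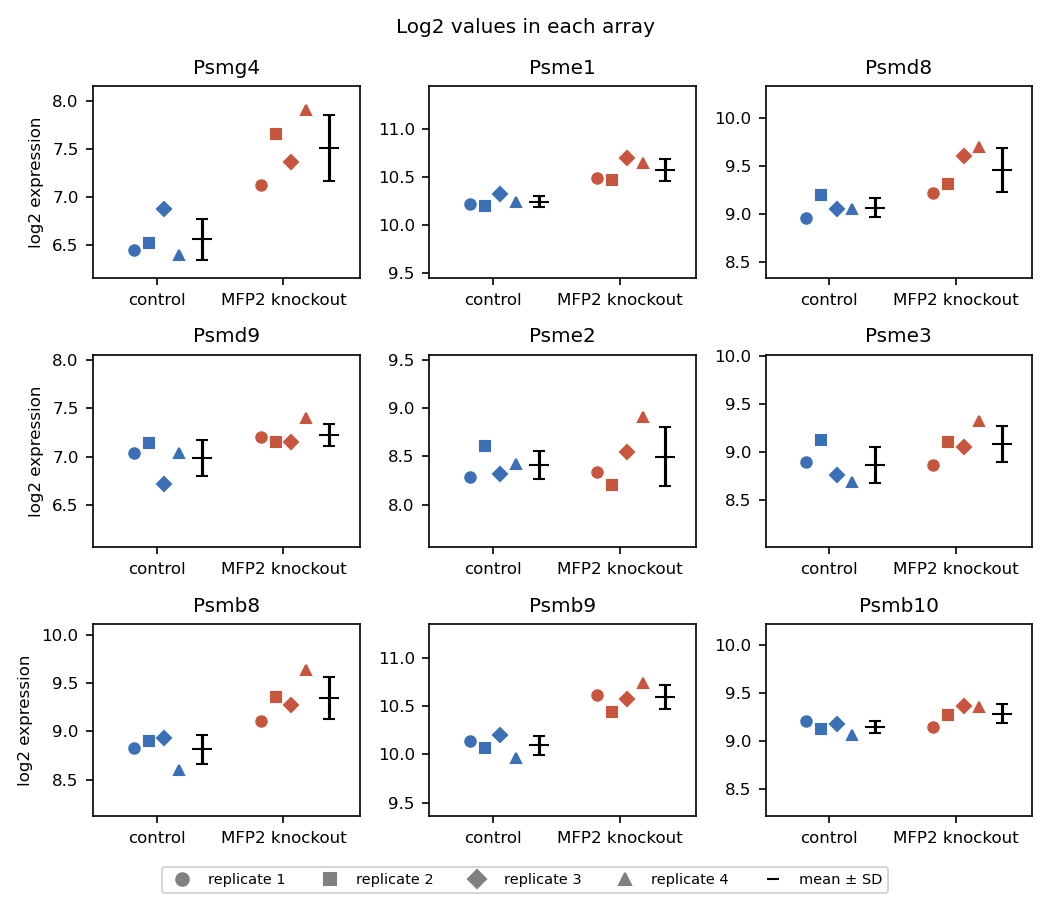
Log2 expression of 6 proteasome genes and of Psmb8, Psmb9 and Psmb10 in each array (marker shape gives the replicate number), with mean ± SD of 4 arrays a group. The groups do not overlap in Psmg4, Psme1, Psmd8, Psmd9, Psmb8 and Psmb9, and they overlap in Psme2, Psme3 and Psmb10.

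The promoter windows of both genes that rose are shown with that of Psme2, the partner of Psme1 that did not pass. The core of the interferon-stimulated response element, GAAANNGAAA, is marked because it occurs in the windows of Psmg4 and Psme1. Other motifs were searched too, so these matches do not test a link with the rise. Each window is RefSeq sequence of the GRCm38.p6 assembly, from 250 bases before to 50 after the annotated start, written 5′ to 3′ on the strand of the gene; capitals mark a match on either strand. The windows are chr13:34162714-34163013, plus strand, for Psmg4, chr14:55578244-55578543, plus strand, for Psme1 and chr14:55591052-55591351, minus strand, for Psme2.
Psmg4: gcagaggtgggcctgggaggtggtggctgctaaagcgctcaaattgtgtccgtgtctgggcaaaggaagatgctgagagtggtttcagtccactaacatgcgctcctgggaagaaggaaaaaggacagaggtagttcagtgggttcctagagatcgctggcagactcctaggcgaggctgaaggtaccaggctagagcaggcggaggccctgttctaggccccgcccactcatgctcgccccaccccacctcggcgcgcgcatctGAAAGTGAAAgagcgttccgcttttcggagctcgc
Psme1: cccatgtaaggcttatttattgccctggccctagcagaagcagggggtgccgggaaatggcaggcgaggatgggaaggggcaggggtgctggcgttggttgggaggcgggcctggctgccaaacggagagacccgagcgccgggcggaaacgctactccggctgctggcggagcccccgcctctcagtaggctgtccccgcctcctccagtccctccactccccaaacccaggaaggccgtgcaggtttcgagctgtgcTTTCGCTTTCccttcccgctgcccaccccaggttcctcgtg
Psme2: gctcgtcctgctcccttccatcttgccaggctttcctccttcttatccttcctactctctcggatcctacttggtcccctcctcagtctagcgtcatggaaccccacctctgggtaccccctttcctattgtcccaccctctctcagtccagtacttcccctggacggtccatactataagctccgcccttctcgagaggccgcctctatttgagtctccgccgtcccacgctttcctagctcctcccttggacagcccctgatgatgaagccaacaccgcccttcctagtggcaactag

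In Psmg4 the match began at base 16 counted from the start site as base 1, and in Psme1 at base 10, on the opposite strand. No match was found in the Psme2 window, nor in a second window of that gene, which says only that these letters are not there. Psme1 and Psme2 are near neighbours, with 1 gene, Emc9, between them in the annotation. A promoter window was matched for 39 of the 47 genes, and 5 of the 39 (12.8%) held this motif in a window, against 3.99% of 27025 genes. The other 3 were Psmd9 (change 0.24), Psmb3 (0.18) and Psmd4 (-0.10), none of which passed the test. The motif was found in no window of Psmb8, Psmb9 or Psmb10 (1 window each), the interferon-inducible subunits, of which Psmb8 and Psmb9 rose; the window of Psmb8 held 1 gamma-activated site and that of Psmb9 1 CCAAT box.

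Among the other motifs searched on both strands, the ETS site CCGGAAG occurred in the windows of 16 genes (41.0%, against 9.93% of all genes). The antioxidant response element core TGACNNNGC, the kind of site that the proteasome regulators Nfe2l1 and Nfe2l2 bind, occurred in 6 (15.4%, against 14.0%): Psmb5, Psmb6, Psmc6, Psmd12, Psmd9 and Psme4. The gamma-activated site TTCNNNGAA occurred in 2 (5.13%, against 9.55%), and the CCAAT box in 15 (38.5%, against 41.1%). The windows of the proteasome genes had a median GC content of 59.0%, against 52.7% for all windows, and its part in these shares was not tested. These matches describe sequence and not binding, and no match in the printed windows overlapped another of these motifs.

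The remaining activators did not pass the test. Psme2, the beta subunit of PA28, stood at 8.29, 8.61, 8.32 and 8.43 in control arrays 1 to 4 and at 8.34, 8.20, 8.54 and 8.91 in knockout arrays 1 to 4. The groups overlapped, with knockout 4 the highest of the 8 arrays and knockout 2 the lowest, and the change was 0.09 ± 0.14 (adjusted p = 0.804, 95% interval -0.22 to 0.40). A probe set annotated to both Psme2 and its copy Psme2b, which the rule leaves out, had 8.88 ± 0.12 in the controls and 8.78 ± 0.27 in the knockout (n = 4 each, two-sided exact permutation p = 0.543). Psme3, the nuclear PA28 gamma activator, stood at 8.90, 9.12, 8.77 and 8.69 in the controls and at 8.87, 9.10, 9.05 and 9.33 in the knockout, with a change of 0.22 ± 0.12 (adjusted p = 0.351, 95% interval -0.05 to 0.48). Psme4, the PA200 activator, stood at 8.19, 8.26, 8.11 and 8.35 in the controls and at 8.12, 8.04, 8.08 and 8.39 in the knockout, with a change of -0.07 ± 0.10 (adjusted p = 0.774, 95% interval -0.29 to 0.15). Both groups covered nearly the same range in Psme4. Psmf1, which encodes the proteasome inhibitor PI31, had 7.61 ± 0.14 in the controls and 7.65 ± 0.15 in the knockout, a change of 0.04 ± 0.10 (adjusted p = 0.883).

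Of the 16 genes of the 20S core 0 passed the test, 12 (75.0%) had a change above 0, against 44.2% of all genes, and the median change was 0.13. The beta ring had a median of 0.18, with 7 of 8 genes above 0 and a range from -0.12 (Psmb11) to 0.26 (Psmb2). The alpha ring had a median of 0.04, with 5 of 8 above 0 and a range from -0.11 to 0.27 (Psma5). Psmb11, known as a subunit of the thymus, and Psma8, known as a subunit of the testis, were among the 4 core genes with changes below 0. The probe set of Psmb11 was dim, with means of 5.31 in the controls and 5.19 in the knockout, below the array medians of 6.03 to 6.15.

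Psmb4, a structural beta subunit, had the lowest p of the core. Psmb4 stood at 10.05, 10.11, 9.97 and 10.07 in control arrays 1 to 4 and at 10.11, 10.12, 10.47 and 10.52 in knockout arrays 1 to 4. Knockouts 3 and 4 were above all other arrays and knockouts 1 and 2 were level with the highest control, and the change was 0.25 ± 0.11 (adjusted p = 0.205, 95% interval 0.02 to 0.49). Psma7, an alpha ring subunit, stood at 9.98, 9.82, 9.81 and 10.00 in the controls and at 9.93, 10.00, 10.27 and 10.28 in the knockout. Here too knockouts 3 and 4 were the highest arrays, and the change was 0.22 ± 0.10 (adjusted p = 0.265, 95% interval -0.01 to 0.44).

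The catalytic subunits did not pass either. Psmb5, the chymotrypsin-like subunit, stood at 9.47, 9.32, 9.62 and 9.38 in the controls and at 9.26, 9.83, 9.76 and 9.72 in the knockout, a change of 0.19 ± 0.13 (adjusted p = 0.455, 95% interval -0.08 to 0.47). Knockout 1 was the lowest of the 8 arrays and the other knockouts were the 3 highest. Psmb6, the caspase-like subunit, stood at 10.03, 10.16, 9.99 and 9.82 in the controls and at 9.97, 10.08, 10.36 and 10.33 in the knockout, a change of 0.19 ± 0.11 (adjusted p = 0.395, 95% interval -0.06 to 0.43). Psmb7, the trypsin-like subunit, stood at 9.66, 9.63, 9.40 and 9.52 in the controls and at 9.43, 9.42, 9.76 and 9.76 in the knockout, a change of 0.04 ± 0.11 (adjusted p = 0.9, 95% interval -0.20 to 0.28). In Psmb6 and Psmb7 knockouts 3 and 4 were again the highest arrays, and knockouts 1 and 2 lay within the range of the controls.

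The 19S particle had 17 genes, of which 0 passed, 6 (35.3%) had a change above 0, against 44.2% of all genes, and the median change was -0.07. The ATPase ring had a median of -0.09 and 5 of its 6 genes below 0, in a range from -0.13 (Psmc3) to 0.04 (Psmc5). Psmc3 had the lowest p of the ring, with 8.77 ± 0.09 in the controls and 8.65 ± 0.10 in the knockout (n = 4 each), a change of -0.13 ± 0.09 (adjusted p = 0.488, 95% interval -0.32 to 0.07). The non-ATPase subunits had a median of -0.06, with 5 of 11 above 0 and a range from -0.13 (Psmd11) to 0.39 (Psmd8). The medians of the core and of the particle are given side by side, and their difference was not tested.

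Psmd8, a lid subunit of the particle, came close to the threshold. Psmd8 stood at 8.97, 9.20, 9.06 and 9.05 in control arrays 1 to 4 and at 9.22, 9.31, 9.60 and 9.70 in knockout arrays 1 to 4. The groups did not overlap, by a gap of 0.01 between control 2 and knockout 1, and the change was 0.39 ± 0.12 (adjusted p = 0.0553, 95% interval 0.14 to 0.64). Psmd8 passed in 6 of 22 alternative settings, among them quantile normalization (adjusted p = 0.0269) and the fit without knockout 1 (0.0234). Without controls 1 and 3 and knockout 2 the adjusted p was 0.268. Psmd14, the deubiquitinase of the lid, stood at 8.50, 8.57, 8.43 and 8.68 in the controls and at 8.40, 8.47, 8.66 and 9.02 in the knockout, a change of 0.09 ± 0.13 (adjusted p = 0.778, 95% interval -0.19 to 0.37).

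Of the 7 assembly chaperones only Psmg4 passed. Psmd9, which helps to assemble the base of the 19S particle, stood at 7.04, 7.14, 6.72 and 7.04 in the controls and at 7.20, 7.15, 7.15 and 7.40 in the knockout. The groups did not overlap, by a gap of 0.01, and the change was 0.24 ± 0.11 (adjusted p = 0.222, 95% interval 0.01 to 0.48). Psmd5, another base chaperone, had the lowest change of the 47 genes. Psmd5 stood at 6.84, 6.81, 6.03 and 6.69 in the controls and at 6.25, 6.39, 6.31 and 6.42 in the knockout, a change of -0.25 ± 0.16 (adjusted p = 0.412, 95% interval -0.59 to 0.09). Control 3 alone was below the knockout arrays. Without this array, the one that went against a fall, the change was -0.44 with an adjusted p of 0.0112. The adjusted p was 0.678 without control 1 and 0.612 without control 2. Without controls 1 and 3 and knockout 2 the change was -0.42 with an adjusted p of 0.0915. The changes of Psmd10, Psmg1 and Psmg2 were 0.19, -0.00 and 0.18. The symbols that name no subunit, Psmc3ip and Psme3ip1, had changes of 0.09 and 0.04.

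**Figure D3:**
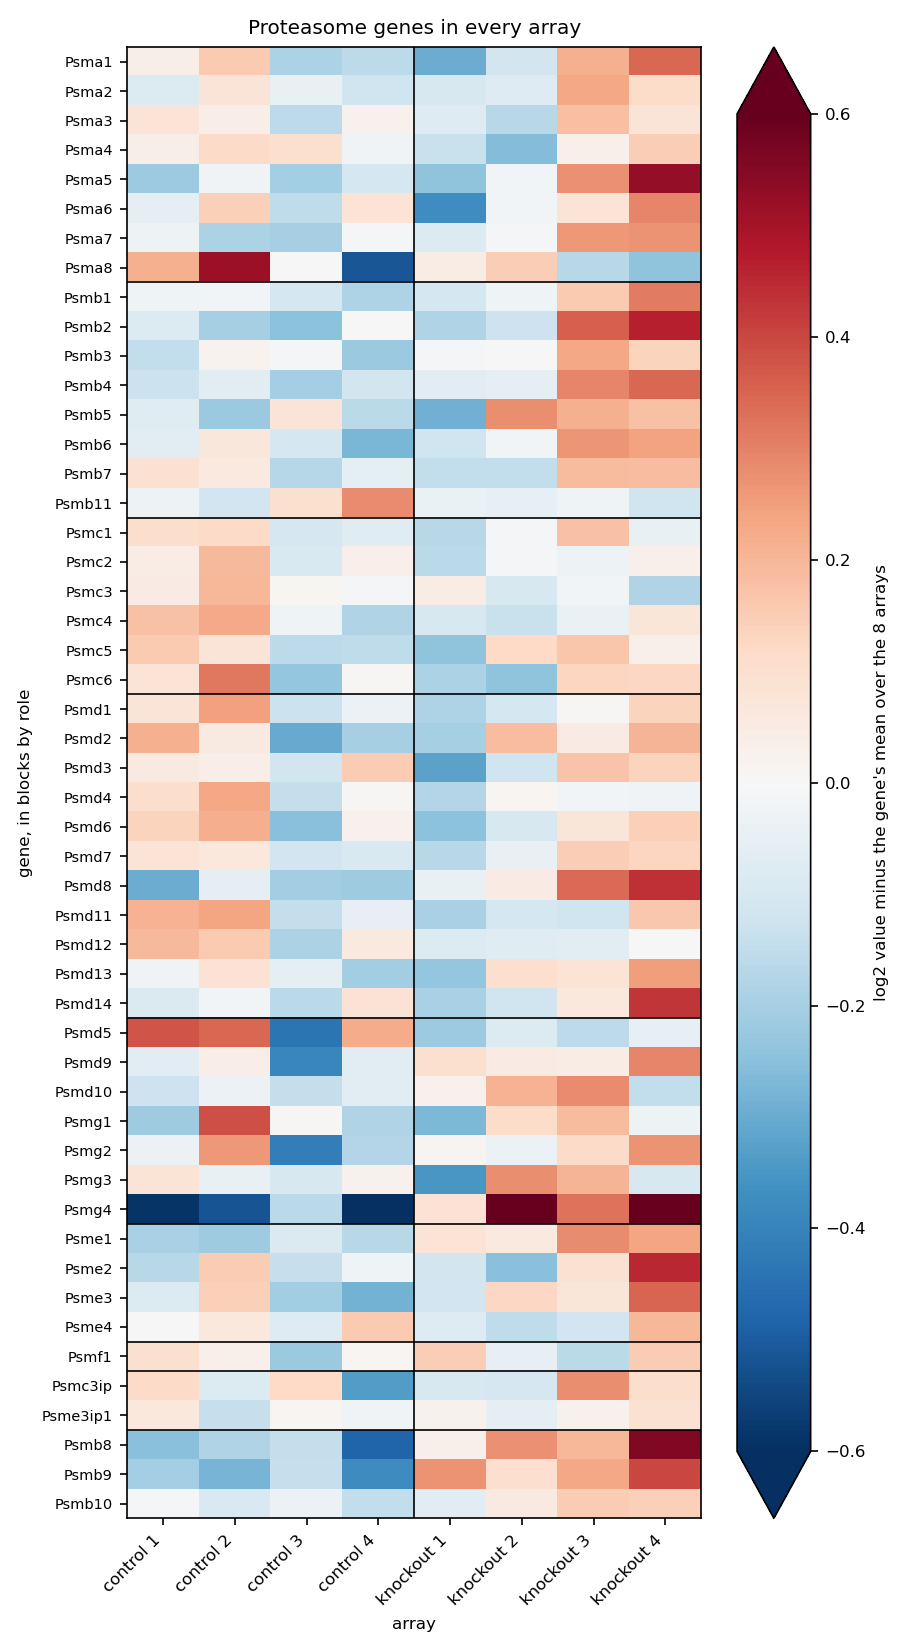
Log2 value minus each gene's mean over the 8 arrays for the 47 proteasome genes and Psmb8, Psmb9 and Psmb10, in blocks by role; red is above and blue below the mean, and the scale ends at 0.6. Many core genes are red in knockouts 3 and 4 and blue in knockout 1, and many genes of several blocks are blue in control 3.

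Within each group the arrays differed by more than the median change of 0.04. The median deviation of the 47 genes from their own means was 0.03, 0.07, -0.14 and -0.06 in control arrays 1 to 4 and -0.12, -0.04, 0.13 and 0.15 in knockout arrays 1 to 4. Control 3 and knockout 1 were thus the lowest arrays and knockouts 3 and 4 the highest, whereas the median over all genes stayed between -0.03 and 0.02. For the 20S core the median deviation was -0.11, -0.04, 0.21 and 0.21 in knockout arrays 1 to 4, and between -0.13 and 0.03 in the controls. For the 19S particle it was -0.19, -0.07, 0.07 and 0.13 in the knockout and between -0.14 and 0.16 in the controls.

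Among the 4 knockout arrays, knockout 4 held the highest value in 27 of the 47 genes (57.4%, against 35.8% of all genes) and knockout 1 the lowest in 30 (63.8%, against 25.6%). Among the 4 controls, control 2 held the highest value in 27 and control 3 the lowest in 27 (57.4% each, against 27.5% and 24.5% of all genes). In all 11 non-ATPase subunits of the 19S particle knockout 1 was the lowest knockout array. The SD was larger in the knockout than in the control group for 29 of the 47 genes (61.7%) and for 13 of the 16 core genes (81.3%), against 48.7% of all genes. The median SD over the 47 genes was 0.182 in the knockout and 0.130 in the controls, against 0.137 and 0.141 over all genes. These counts describe 8 arrays whose genes are not independent of each other.

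**Figure D4:**
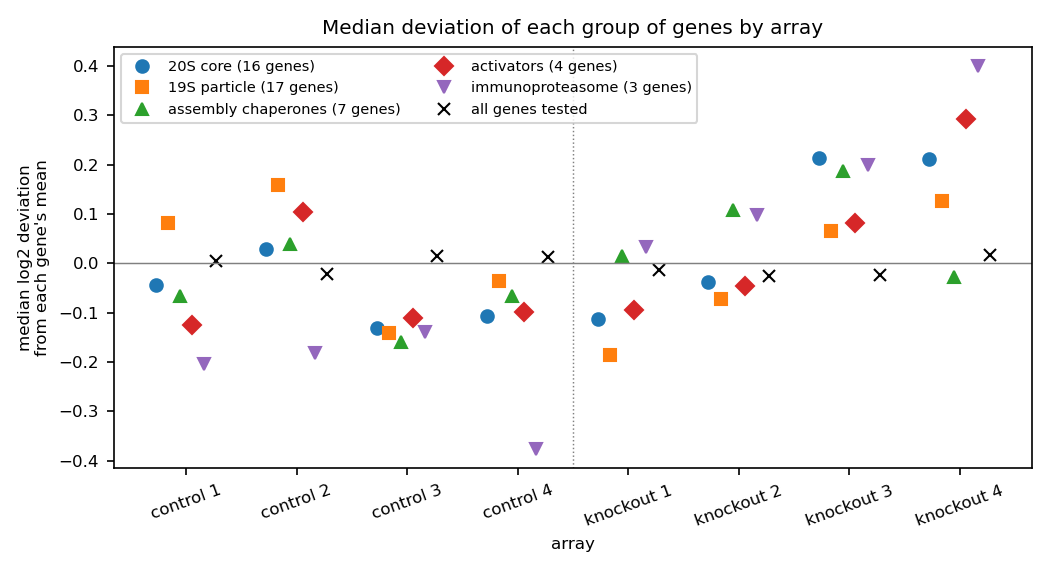
Median log2 deviation from each gene's own mean, by array, for the core, the 19S particle, the assembly chaperones, the activators, the immunoproteasome and all genes tested. The core medians of knockouts 3 and 4 are both 0.21, those of the other arrays lie between -0.13 and 0.03, and all genes tested stay near 0 throughout.

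The markers of other cells varied between these arrays as well. For astrocytes 2 of 6 measured markers rose (Gfap and Aldoc), with a summed linear level of 310 to 349 in the controls and 364 to 503 in the knockout, highest in knockout 4. Of the 6 changes 4 were above 0 and 2 below, the lowest at -0.70. For oligodendrocytes 1 of 5 rose (Mbp), with sums of 483 to 544 and 554 to 618. Of the 5 changes 2 were above 0 and 3 below, with a median of -0.06 and the lowest at -0.24. The oligodendrocyte sum was thus higher in the knockout although more of the changes were below 0. For brain-border macrophages 1 of 7 rose and 4 fell, with sums of 645 to 1019 and 398 to 646, and for endothelium 1 of 6 rose (Flt1) and 1 fell (Pecam1), with sums of 429 to 566 and 437 to 655. No marker of neurons, neutrophils, T cells or B cells passed. All 8 neutrophil changes were below 0 and all 5 T cell changes above 0. Above 0 were also 5 of 7 neuron and 3 of 4 B cell changes. The neutrophil sum ran from 2904 (control 1) to 18676 (control 3) in the controls and from 6838 to 12065 in the knockout. The sums of the 5 T cell markers were 307 to 562 and 403 to 776, and those of the 4 B cell markers 239.6 to 329 and 248 to 407. The lowest log2 value of a marker was 3.95, against 2.04 over all probe sets. No probe set was at 0 in these data, so this does not show that every marker was expressed. The part of these cells in the proteasome values was not tested.

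The immunoproteasome subunits that the rule leaves out were the nearest comparison. Psmb9 stood at 10.14, 10.06, 10.21 and 9.97 in the controls and at 10.61, 10.44, 10.58 and 10.74 in the knockout, and rose by 0.50 ± 0.09 (adjusted p = 0.00506). Psmb8 stood at 8.83, 8.90, 8.94 and 8.60 in the controls and at 9.11, 9.35, 9.28 and 9.64 in the knockout, and rose by 0.53 ± 0.12 (adjusted p = 0.0143). Neither gene's groups overlapped. Psmb10 did not pass, with 9.14 ± 0.06 in the controls and 9.28 ± 0.10 in the knockout, a change of 0.14 ± 0.09 (adjusted p = 0.4). Without controls 1 and 3 and knockout 2, the change was 0.63 ± 0.12 for Psmb9 (adjusted p = 0.0186) and 0.59 ± 0.17 for Psmb8 (adjusted p = 0.0916). Both changes were thus larger there, with larger standard errors.

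Whether an inducible subunit changed more than the constitutive subunit it replaces was tested on the log2 ratio within each array, for 3 subunit pairs and for Psme1 over Psme2. With 4 arrays a group, the smallest two-sided exact permutation p is 0.0286. The ratio of Psmb9 to Psmb6 was 0.11, -0.09, 0.22 and 0.15 in the controls and 0.64, 0.37, 0.22 and 0.41 in the knockout. The groups touched but did not overlap, and the difference was 0.31 ± 0.11 (exact permutation p = 0.0286, or 0.114 adjusted over the 4 ratios). The ratio of Psmb8 to Psmb5 differed by 0.34 ± 0.13 with overlapping groups (exact permutation p = 0.0857, adjusted 0.171), and that of Psmb10 to Psmb7 by 0.10 ± 0.09 (exact permutation p = 0.286, adjusted 0.286). The ratio of Psme1 to Psme2 differed by 0.24 ± 0.15 (exact permutation p = 0.171, adjusted 0.229). No ratio passed after adjustment, but at least 3 of the 4 would have had to separate fully for any to pass, so this says little about whether the members of a pair changed unequally.

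**Figure D5:**
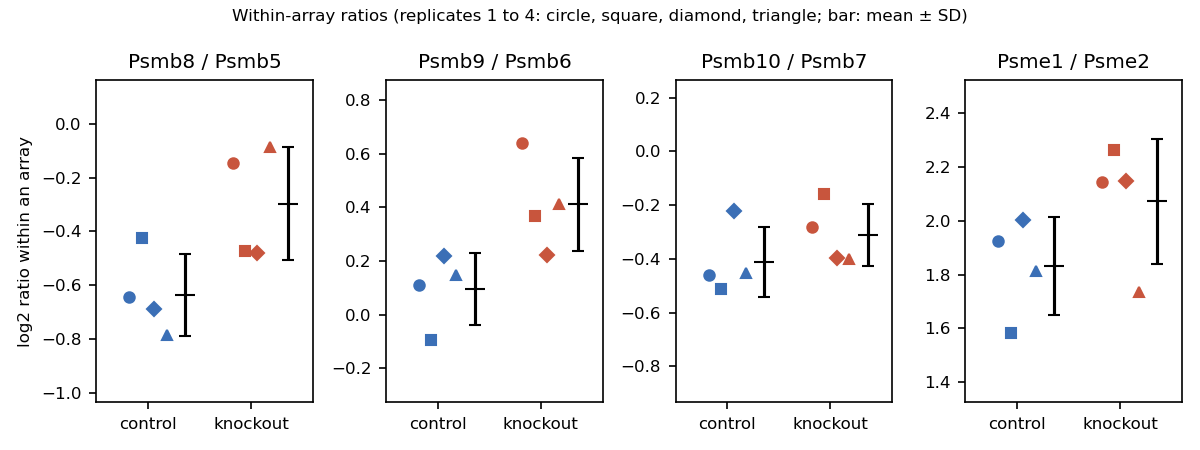
Log2 ratio within each array of Psmb8 to Psmb5, Psmb9 to Psmb6, Psmb10 to Psmb7 and Psme1 to Psme2, with mean ± SD of 4 arrays a group. The groups do not overlap for Psmb9 to Psmb6 and overlap for the other ratios.

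Other genes of the pathway were taken from 5 lists by function: proteins bound to the proteasome or building it, control of proteasome genes, ubiquitin and its activating enzymes, shuttle factors with the segregase Vcp, and peptide transport and trimming. Of the 36 genes measured 1 rose and 1 fell (5.56%, against 9.55% of all genes), and their median change was 0.04, beside -0.02 for all genes. Both were in the list of 11 measured genes that build or bind the proteasome. Sem1, a small lid subunit that its symbol keeps out of the rule, stood at 9.25, 9.33, 9.50 and 9.53 in the controls and at 9.53, 10.29, 10.19 and 10.24 in the knockout, and rose by 0.66 ± 0.15 (adjusted p = 0.0161). The groups did not overlap, by a gap of 0.01 between control 4 and knockout 1. The Sem1 call was lost without control 1 (adjusted p = 0.0531), control 2 (0.0574) or knockout 3 (0.0536), and without controls 1 and 3 and knockout 2 together (0.187). Akirin2, which brings proteasomes into the nucleus, stood at 9.47, 9.54, 9.29 and 9.34 in the controls and at 8.91, 8.997, 8.77 and 8.95 in the knockout. The groups did not overlap, and Akirin2 fell by 0.50 ± 0.09 (adjusted p = 0.00433); without controls 1 and 3 and knockout 2 the adjusted p was 0.0361.

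In the other lists 0 genes passed in the main fit, and those with the lowest p are given by value. Nfe2l1, the transcription factor that raises proteasome genes when proteasome activity is low, stood at 8.68, 8.70, 8.63 and 8.53 in the controls and at 8.84, 8.83, 9.04 and 9.18 in the knockout. The groups did not overlap, and the change was 0.33 ± 0.10 (adjusted p = 0.0561, 95% interval 0.12 to 0.55). Nfe2l1 passed in 5 of 22 alternative settings, among them quantile normalization and the fit without knockout 1. Maff, a small Maf partner of such factors, had a change of 0.20 ± 0.12 (adjusted p = 0.387). Sqstm1, the p62 receptor for ubiquitinated cargo, had a change of 0.36 ± 0.12 (adjusted p = 0.085), and the shuttle factor Ddi1 one of 0.22 ± 0.10 (adjusted p = 0.236). Sqstm1 passed in 4 of 22 alternative settings, among them the fit without controls 1 and 3 and knockout 2. The probe set of Ddi1 was dim, with means of 3.92 in the controls and 4.14 in the knockout, below the array medians of 6.03 to 6.15. Tap1, which carries peptides into the endoplasmic reticulum and lies between Psmb9 and Psmb8 in the annotation, had a change of 0.45 ± 0.16 (adjusted p = 0.103), and its partner in peptide loading Tapbp one of 0.17 (adjusted p = 0.331). Of the ubiquitin list only Uba6 was measured here, with a change of -0.13 ± 0.11 (adjusted p = 0.612).

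Of the 47 genes 5 had further probe sets with the same single symbol, and no further probe set passed. The change of Psma5 was 0.27 in the probe set used and 0.26 in the other, that of Psmb3 was 0.18 and 0.26, that of Psmd2 was 0.12 and 0.04, and the 3 probe sets of Psma3 gave values between -0.00 and 0.01. Those of Psmc1 had opposite signs, -0.02 and 0.05.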

How the data were processed

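Whole-transcript expression was measured by microarray in 4 MFP2 knockout and 4 control samples of sorted microglia, grouped by the genotype in the labels. Per the labels' protocols, 5.775 ng of RNA with an integrity number of 8 or higher was amplified for each sample, which can add noise. The deposited table holds log2 values per probe set that the authors made by RMA, as the submitters' processing notes say. The sources used here name neither its software nor its chip library. Base 2 was inferred, since values ran from 2.04 to 13.99. RMA equalises the arrays, which hides any shift common to all genes, and it compresses changes of dim probe sets. Array medians were 6.03 to 6.15, and the number of arrays limits the precision.

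Of 28874 probe sets, 21789 had 1 gene symbol in the platform annotation, 1621 several and 5464 none; those with several or none were not named. The probe set with the highest mean stood for each of 19938 genes. Knockout was compared with control by limma 3.58.1 in R 4.3.3 (lmFit, eBayes, two-sided, without covariates, all genes kept), and p-values were adjusted by Benjamini-Hochberg over the 19938 genes. The script was tested on simulated data. Members and gene lists were chosen with earlier results of these data known. Named were the genes that passed, the uncalled member with the lowest p in each role, the catalytic subunits, the activators and Psmf1, and of each pathway list the genes that passed or the pair with the lowest p; any other member could be named. The closing section gives the effect of the alternatives tried: normalization, centring, probe set rules, filter, variance prior, array weights, replicate block, thresholds, a plain two-sample test and left-out arrays. The ratios within arrays were added after results were seen. Promoter windows are those of a RefSeq table of GRCm38.p6, and motifs were searched on both strands.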

Additional observations from a re-analysis of the deposited data

Results flagged for a closer look

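In 2 genes, 1 array lay far from the other 3 of its group by Dixon's test. Psmd12, a lid subunit of the 19S particle, read 8.93 in knockout 4 and 8.85 to 8.86 in the other knockout arrays, so the distance is small. Sem1, which rose in the knockout, read 9.53 in knockout 1 and 10.19 to 10.29 in the other knockout arrays. Of the 106 groups of 4 arrays looked at, 2 were picked out (1.89%), and chance alone picks out about 1 in 20.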

How the results depend on the processing

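The count of 2 proteasome genes that rose fell to 0 with a plain two-sample test (adjusted p of Psmg4 0.0691), and to 1 at an adjusted p under 0.01, with at least a 1.5-fold change, and without controls 1 and 3 and knockout 2. It was 1 to 3 with single arrays left out (1 without control 1, 2 or 4 or knockout 3 or 4). Psmg4 passed in 21 of 22 settings and Psme1 in 13; Psmd8 came in as the third gene in 6. The count of 0 that fell became 1, Psmd5, without control 3 alone (0 to 1 over the left-out arrays) and with knockout 2 also left out (1). For the pathway lists, 1 gene rose; this became 2 without dim genes, 2 with quantile normalization, 3 with cyclic loess, 0 with the plain test, 0 at an adjusted p under 0.01, and 0 to 3 with single arrays left out. Akirin2 stopped counting at 1.5-fold (0 genes). The median change of 0.04 was -0.00 to 0.12 with single arrays left out and 0.02 to 0.07 otherwise, while that of all genes was -0.03 to -0.00. The values do not settle whether the replicate numbers pair the arrays. Deviations of same-numbered arrays correlated at 0.16, -0.06, 0.01 and 0.01 over genes, against -0.13 to 0.07 for the other pairs. Pair 1 thus lay above that range and the rest within it. With the replicate number as a block, the count was again 2 (Psme1, adjusted p = 0.0486, and Psmg4, 0.00527), with 0 that fell. Over single proteasome genes, 1015 of 1033 recomputed values kept their side of the threshold, 10 lost and 8 gained a call. No called gene changed sign; signs of genes without a call were not counted. The causes of these moves were not tested beyond the fewer arrays or genes that some settings hold. With 4 arrays a group, changes as unlike as 0.33 (Psme1) and 0.66 (Sem1) were called or missed depending on 1 array.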
